A study of Mus musculus with 18 samples.

Results

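The 39 genes described here are cell cycle genes, a set of named genes among the 32285 genes of the expression matrices, and all 39 were detected in each of the 3 tissues. They were followed in cells of the mouse gut as the summed level and the level of each gene, given as CPM (molecules of a gene, scaled so that every group of cells has the same total), and as the share of cells in which 3 or more of the 39 were detected. The choice of genes used no measured value. Immune cells of the colon, the small bowel epithelium and the small bowel lamina propria (the connective tissue under the epithelium) were captured for 5′ single-cell RNA sequencing after bead enrichment for CD45, a protein on the surface of white blood cells, and antibody hashtags marked the genotype of each cell. Knockout (KO) and heterozygous (het) mice for St8sia6, which encodes a sialyltransferase of glycoproteins and glycolipids, were compared with wild type (WT) mice. Each of 3 independent runs used 1 KO, 1 het and 2 WT mice, whose cells were combined by organ, and the colon preparation held lamina propria and epithelium together. The labels give neither the strain, age or sex of the mice nor which piece of St8sia6 was deleted.

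A cell that divides first copies its DNA in S phase and then separates the copies in mitosis. Transcription factors of the E2F family drive genes for replication proteins and for the supply of nucleotides. The DREAM and MuvB complexes control the later wave of mitotic genes, which MuvB drives with its partners B-MYB and FOXM1. In the gut, the crypt epithelium, germinal centre B cells and activated T cells are known to divide. Among the 39 genes, 10 act in replication. Mcm2 to Mcm7 encode the MCM helicase, Pcna the sliding clamp, Gins2 a subunit of the active helicase, Uhrf1 a factor that helps copy DNA methylation, and Hells a chromatin remodeller. The nucleotide supply has 4 genes, which are Rrm1 and Rrm2 (ribonucleotide reductase), Tyms (thymidylate synthase) and Tk1 (thymidine kinase). The 11 genes of the cyclins, kinases and ubiquitin machinery are Ccna2, Ccnb1, Ccnb2, Cdk1, Cdc20, Ube2c, Plk1, Aurka, Aurkb, Bub1 and Bub1b. The 12 genes of the chromosomes and spindle are Mki67 (the source of the Ki-67 antigen), Top2a (a topoisomerase), Birc5 (survivin), Tpx2, Nusap1, Prc1, the centromere genes Cenpa, Cenpe and Cenpf, and the mitotic kinesins Kif11, Kif20a and Kif23. Hmgb2, a DNA-bending chromatin protein, and Stmn1, which destabilises microtubules, complete the set. Replication and nucleotide supply together are called the S side (14 genes) below, and the cyclins, kinases, ubiquitin machinery, chromosomes and spindle the M side (23 genes).

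The sequence before the start of a gene shows the elements by which the 2 waves are known to be read. In the RefSeq promoter windows of the build GRCm38.p6, 35 windows of 32 of the 39 genes were found, and Mcm4, Gins2, Ccna2, Aurkb, Tpx2, Kif20a and Stmn1 had no entry. The 250 bases before each start were searched on both strands for CCAAT (the box bound by NF-Y), for the cell cycle homology region of the DREAM and MuvB complexes (CHR, searched as TTTGAA or TTCGAA) and for an E2F element (searched as TTTCCCGC, TTTGGCGC, TTTCGCGC or TTTGCCGC). CCAAT was present in 85.7% of the windows of the 39 genes, against 33.8% of all 32851 windows of the table. The CHR letters stood in 34.3% of them, against 17.1% of all windows, and every one of these 12 windows also held CCAAT, a combination found in 6.02% of all windows. The E2F letters stood in 17.1%, against 1.86% of all windows. Within the set, the CHR letters were in 45.0% of the M side windows and 14.3% of the S side windows, and the E2F letters in 5.0% of the M side windows and 35.7% of the S side windows. Windows of genes whose values appear below follow, 4 of the M side and 2 of the S side, with every match on either strand in capitals. They are at chr11:99024190-99024439 (minus strand) for Top2a, chr10:69352913-69353162 (minus) for Cdk1, chr2:164769679-164769928 (plus) for Ube2c, chr9:70421555-70421804 (minus) for Ccnb2, chr8:75109259-75109508 (plus) for Mcm5 and chr1:128359706-128359955 (minus) for Mcm6.
Top2a: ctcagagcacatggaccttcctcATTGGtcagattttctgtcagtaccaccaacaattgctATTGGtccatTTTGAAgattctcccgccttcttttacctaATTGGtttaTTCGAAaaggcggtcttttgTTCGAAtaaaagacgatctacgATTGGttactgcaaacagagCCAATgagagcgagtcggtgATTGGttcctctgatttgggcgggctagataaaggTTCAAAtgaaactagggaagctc
Cdk1: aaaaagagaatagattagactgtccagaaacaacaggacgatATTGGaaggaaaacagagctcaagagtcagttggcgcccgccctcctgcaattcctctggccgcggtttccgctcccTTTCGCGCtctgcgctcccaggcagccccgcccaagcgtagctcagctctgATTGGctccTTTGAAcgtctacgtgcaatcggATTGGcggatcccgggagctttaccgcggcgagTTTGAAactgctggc
Ube2c: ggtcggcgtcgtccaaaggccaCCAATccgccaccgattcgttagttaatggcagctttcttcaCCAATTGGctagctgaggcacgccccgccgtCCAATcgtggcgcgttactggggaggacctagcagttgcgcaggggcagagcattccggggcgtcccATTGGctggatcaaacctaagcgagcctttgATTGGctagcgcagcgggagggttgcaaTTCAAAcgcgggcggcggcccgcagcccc
Ccnb2: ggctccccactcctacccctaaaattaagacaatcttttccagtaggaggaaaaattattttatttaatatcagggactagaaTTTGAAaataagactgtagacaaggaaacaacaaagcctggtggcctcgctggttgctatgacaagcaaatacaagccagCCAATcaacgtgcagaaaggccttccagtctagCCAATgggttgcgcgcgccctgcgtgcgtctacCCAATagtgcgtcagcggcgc
Mcm5: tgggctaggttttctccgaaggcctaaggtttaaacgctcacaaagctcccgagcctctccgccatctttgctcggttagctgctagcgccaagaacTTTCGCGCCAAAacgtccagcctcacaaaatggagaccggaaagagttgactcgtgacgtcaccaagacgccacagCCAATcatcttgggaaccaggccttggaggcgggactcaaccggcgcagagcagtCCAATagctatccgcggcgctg
Mcm6: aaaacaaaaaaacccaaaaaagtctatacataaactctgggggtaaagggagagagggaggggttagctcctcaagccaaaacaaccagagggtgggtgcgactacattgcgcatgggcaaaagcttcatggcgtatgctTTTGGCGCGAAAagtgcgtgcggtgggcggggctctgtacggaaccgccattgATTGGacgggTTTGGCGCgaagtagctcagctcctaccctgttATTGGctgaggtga
The Top2a window holds 6 CCAAT and 4 CHR matches, that of Cdk1 3 CCAAT, 2 CHR and 1 E2F match, that of Ube2c 6 CCAAT and 1 CHR match, and that of Ccnb2 3 CCAAT and 1 CHR match. The Mcm5 window holds 2 CCAAT and 2 E2F matches and the Mcm6 window 2 CCAAT and 3 E2F matches, and neither holds the CHR letters. Matches overlap over 4 bases in the Mcm5 window, 4 bases in the Mcm6 window and 2 bases in the Ube2c window. A match is a run of letters and was not tested as a binding site.

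After the filters of the study, 21286 colon, 16705 small bowel epithelium and 21347 small bowel lamina propria cells were kept, with medians of 4726.5, 4903 and 3624 molecules per cell. Each tissue had 3 libraries, numbered here by the endings of the cell barcodes, and no cell barcode was shared within a library, while 139 to 197 barcodes per tissue occurred in more than 1 library. The genotype of each barcode ending was read from its leading hashtag, which also led in at least 95.66% of the cells of an ending except in WT cells of lamina propria library 3 (55.69%, with a median of 1422.5 molecules per cell), of epithelium library 2 (72.51%) and of epithelium library 1 (84.18%). Over all cells, St8sia6 was at 7.33 to 9.89 CPM in KO colon, 10.7 to 14.3 CPM in het colon and 12.4 to 19.0 CPM in WT colon. In the lamina propria it was at 30.7 CPM or more in KO, below every het and WT library, at 42.8 to 49.7 CPM in het and 52.0 to 67.4 CPM in WT cells, and in the epithelium at 1.10 to 7.44 CPM with the genotypes overlapping. The KO levels were lowest in both tissues with clear expression but not 0, and a 5′ read outside the deleted piece would not show the deletion.

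Cells were sorted by 5 lineage markers (Cd3e for T cells, Ms4a1 for B cells, Mzb1 for plasma cells, C1qa for macrophages, Epcam for epithelial cells), and a gate holds the cells with exactly 1 of them, which were 41.2% of colon, 64.5% of small bowel epithelium and 44.6% of lamina propria cells. Cd3e cells were split into Cd4 T, Cd8b1 T and Trdc T (gamma-delta) gates by the only 1 of these genes present, and the remainder are called other T. Cells with several markers, 50.8%, 29.1% and 31.2% of the cells, stayed out of these gates, and no doublet caller was run. Independent markers followed the gates in most cases. Cd3d was detected in 68.0 to 95.7% of the cells of the Cd4, Cd8b1 and Trdc T gates, Cd79a in 90.5 to 97.4% of the Ms4a1 gates and C1qb in 74.1 to 84.2% of the C1qa gates. Krt8 was detected in 66.2 to 88.3% of the Epcam gates, so epithelial cells were present although CD45 positive cells had been enriched. The Mzb1 gate of the small bowel epithelium went against its name, with Flt3 in 64.7% and Jchain in 21.6% of its 153 cells, and is called here by its gene alone. In the lamina propria, Igha molecules occurred in at least 99.5% of the cells of every gate, so RNA from other cells reached all of them. Fewer dividing cells in a gate and less RNA per dividing cell cannot be told apart in the sums of cells that follow.

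The Epcam gates and the cells with both Ms4a1 and Mzb1 carried the highest cell cycle levels, T cells were intermediate, and the single-marker B, plasma cell and macrophage gates were low. The summed level of the 39 genes was 2349 CPM in the 3207 Epcam cells of the colon, 1706 CPM in the 1530 of the small bowel epithelium and 2949 CPM in the 1437 of the lamina propria. Over the 9 sums by library and genotype it ran from 1746 to 3082 CPM in colon (median 2305), from 1308 to 2643 CPM in the epithelium (median 1950) and from 1929 to 3332 CPM in the lamina propria (median 2961). All Cd3e cells together were at 1868 CPM in colon, 1193 CPM in the epithelium and 1961 CPM in the lamina propria, and their sums ran from 1175 to 2292, from 813.5 to 1645 and from 1152 to 2682 CPM. The Epcam and Cd3e ranges overlapped in every tissue. Plasma cells of the lamina propria (the 6054 cells of its Mzb1 gate) had 399.9 CPM, with sums of 313.6 to 571.9 CPM, and the colon Mzb1 gate had 664 CPM, with sums of 369 to 1010 CPM. In the lamina propria gate the many immunoglobulin and Jchain molecules, given below, count in the total and lower the CPM of other genes. The Ms4a1 gate was at 918 CPM in colon, 515.8 CPM in the epithelium and 1117 CPM in the lamina propria, and the C1qa gate at 678.3, 382.1 and 532.3 CPM. A large part of the sum is Hmgb2, with 356.8 of 1563 CPM over all colon cells, 408.5 of 1232 in the epithelium and 198.8 of 817.5 in the lamina propria. Hmgb2 was detected in 62.3%, 68.9% and 37.6% of the cells with fewer than 10 of the other genes. The summed level is therefore not a measure of dividing cells alone.

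**Figure D1:**
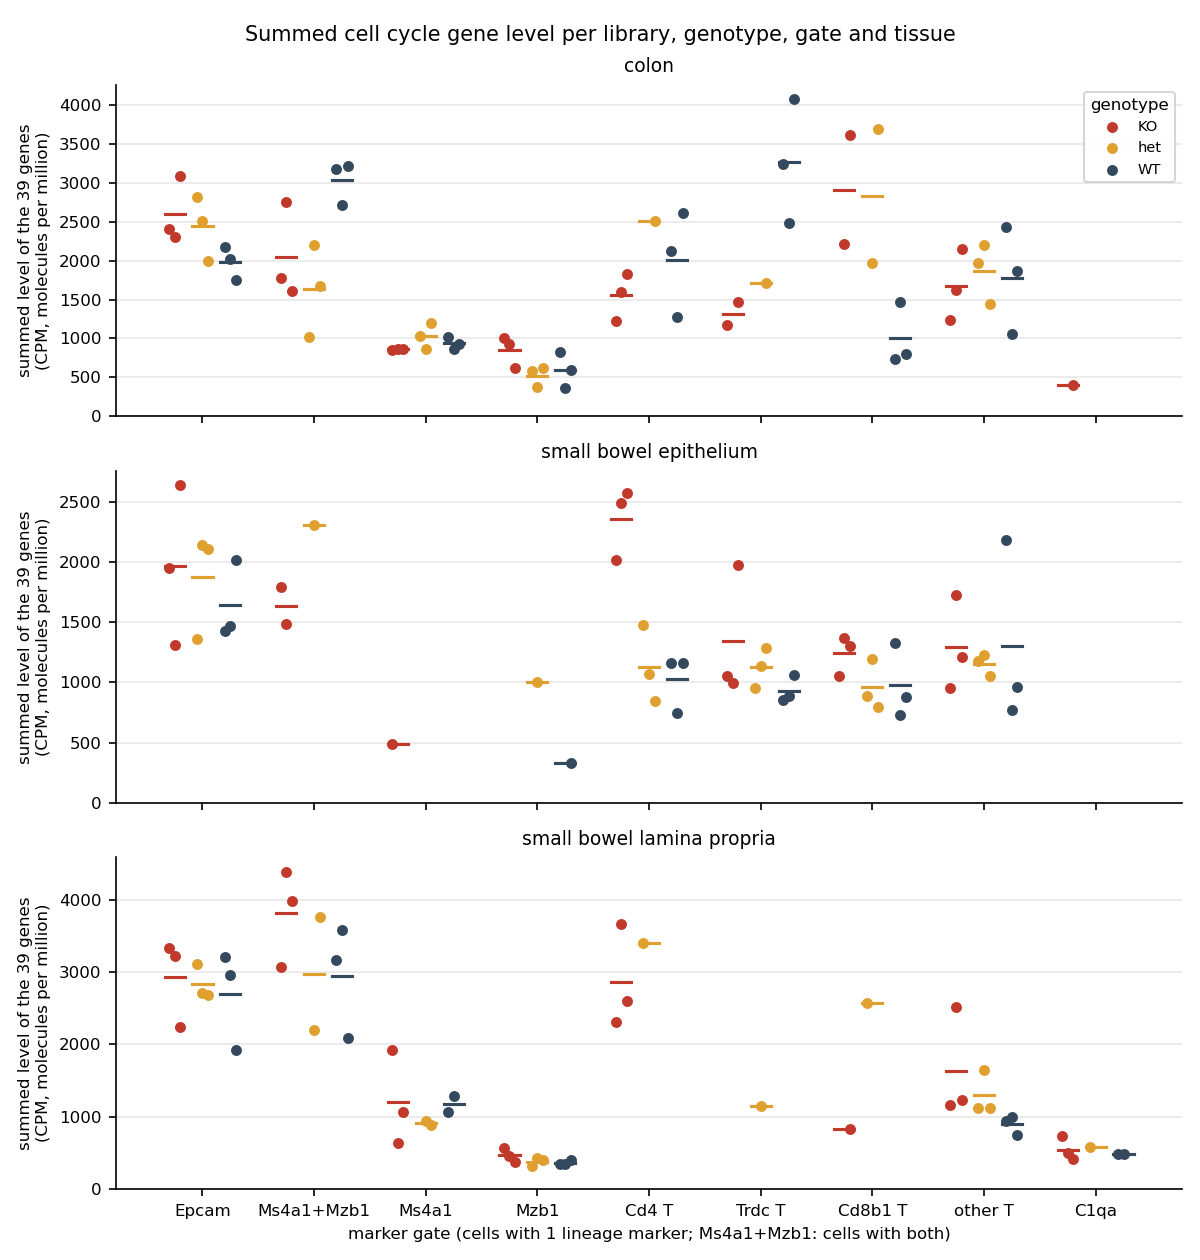
Summed level of the 39 genes in CPM (y axis) for each marker gate (x axis) and tissue (panels). Each point is the sum of the cells of 1 genotype in 1 library with at least 30 cells (KO red, het orange, WT blue) and each bar is the mean of a genotype. Small bowel epithelium Cd4 T cells lie at 2019 to 2573 CPM in KO and 750 to 1164 CPM in WT.

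Cells of the Ms4a1 and Mzb1 gate, which hold both markers and are absent from the single-marker gates, had summed levels of 2574 CPM in colon (3091 cells), 2297 CPM in the epithelium (193 cells) and 3427 CPM in the lamina propria (579 cells). Their median depth in colon was 4316 molecules, against 3430 for Ms4a1 alone. Pairs of cells under 1 barcode were not removed, and their part in these levels was not tested.

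The share of cells with 3 or more of the 39 genes was taken with all molecules and with every cell brought to the same depth. In colon it was 58.7% of Epcam cells and 60.8% of Cd3e cells with all molecules, but 20.8% and 8.12% after each cell was thinned to 1000 molecules. In the epithelium the thinned share was 11.2% in Epcam cells and 4.52% in Cd3e cells, and in the lamina propria 28.5% and 8.70%. Among T cells, the thinned share of the lamina propria Cd4 T gate (13.7%) and of the colon Trdc T gate (11.4%) exceeded those of the other T gates, which lay between 3.97% and 8.33%. Plasma cells and macrophages divide little, and the lowest thinned share, 1.28%, was that of the lamina propria C1qa gate, where the median depth was 2477.5 molecules, against 3699 molecules in the Epcam gate of that tissue. The lamina propria Mzb1 gate, at a median of 6576 molecules, had a thinned share of 2.19%. Immunoglobulin and Jchain molecules are a large part of that gate, as given below, and count among the 1000. Thinning therefore leaves its cells fewer molecules of other genes than T cells keep.

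**Figure D2:**
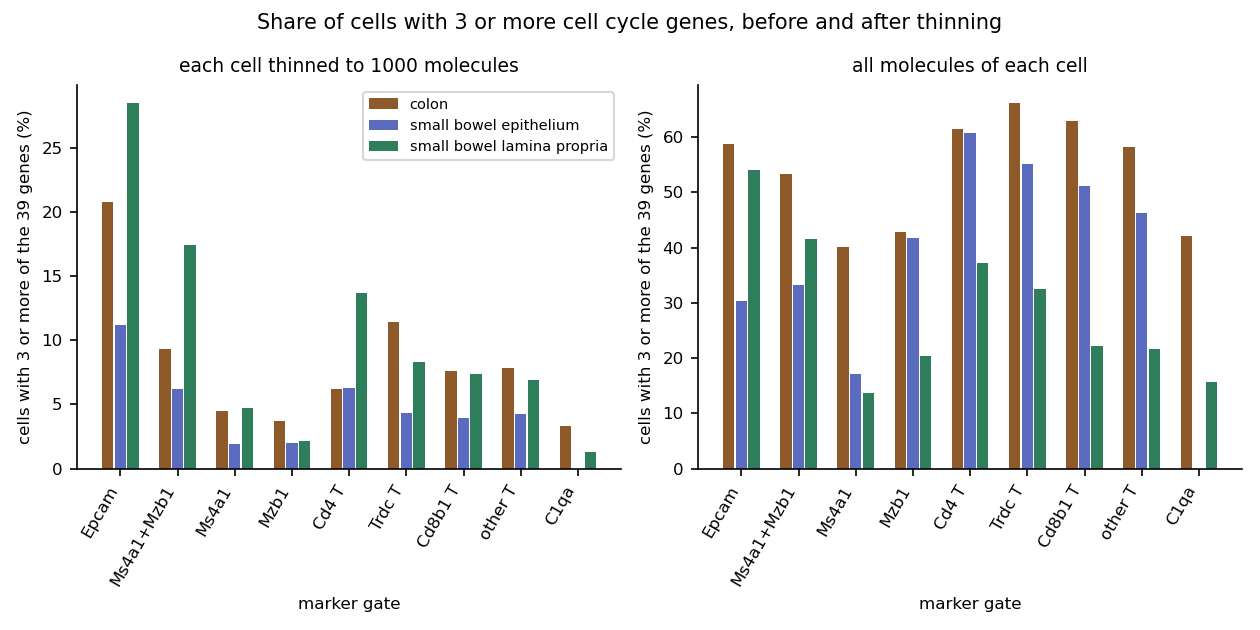
Share of cells with 3 or more of the 39 genes (y axis, percent) by gate (x axis) and tissue (colours), with each cell thinned to 1000 molecules (left) and with all its molecules (right). In colon the Epcam share is 20.8% and the Cd3e-based gates lie at 6.19 to 11.4% when thinned, while all of them lie between 58.2 and 66.2% unthinned.

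In colon and the lamina propria most cell cycle molecules sat in few cells. These cells are picked here by the same genes, so part of this follows from the choice. Cells with 10 or more of the 39 genes made up 8.48% of colon cells (1806), 2.76% of epithelium cells (461) and 5.16% of lamina propria cells (1102), and they held 72.5%, 47.5% and 66.1% of all molecules of the 39 genes. Around that limit, colon had 171 cells with exactly 10 of the genes and 183 with 9. They were 25.1% of Epcam cells in colon (95% exact interval 23.6 to 26.6%), 11.4% in the epithelium (9.82 to 13.1%) and 28.1% in the lamina propria (25.8 to 30.5%), and 4.70%, 1.58% and 4.25% of Cd3e cells. Of the Ms4a1 gate in colon they were 0.618% (0.309 to 1.10%), against 7.41% (6.51 to 8.39%) where Mzb1 was also present. Of the 157 cells with Ms4a1 alone in the epithelium none reached 10, which allows a share of up to 2.32% by the exact interval. These intervals cover counting error only. The cells with 10 or more genes were also deeper, with a median of 29651 molecules against 4793 in the other Epcam cells of colon, and 11187 against 4765 in its Cd3e cells. The part of depth in these shares was not tested further than by thinning, and the share of all molecules held by these cells was not computed.

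The genes differed in how far they were confined to such cells. For each gene, the percentage of its molecules in cells with 10 or more of the other genes was highest in colon for Birc5 (91.0%), Ccnb2 (90.7%), the S and mitosis cyclin Ccna2 (90.2%) and the kinetochore protein Cenpf (89.7%). It was lowest for Pcna (45.4%), Mcm4 (46.9%), Cenpa (50.5%), Mcm6 (56.0%), Hmgb2 (56.8%) and Mcm2 (58.2%). The same genes were low in the small bowel epithelium, with 19.8% for Mcm4, 23.7% for Pcna and 28.2% for Mcm6. The cyclins, kinases and ubiquitin machinery lay between 75.2 and 90.7% in colon, and the replication genes between 45.4 and 83.4%, where Uhrf1 was the highest. In the lamina propria Tk1 (35.7%, against 79.8% in colon) and the mitotic checkpoint kinase Bub1b were among the least confined.

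**Figure D3:**
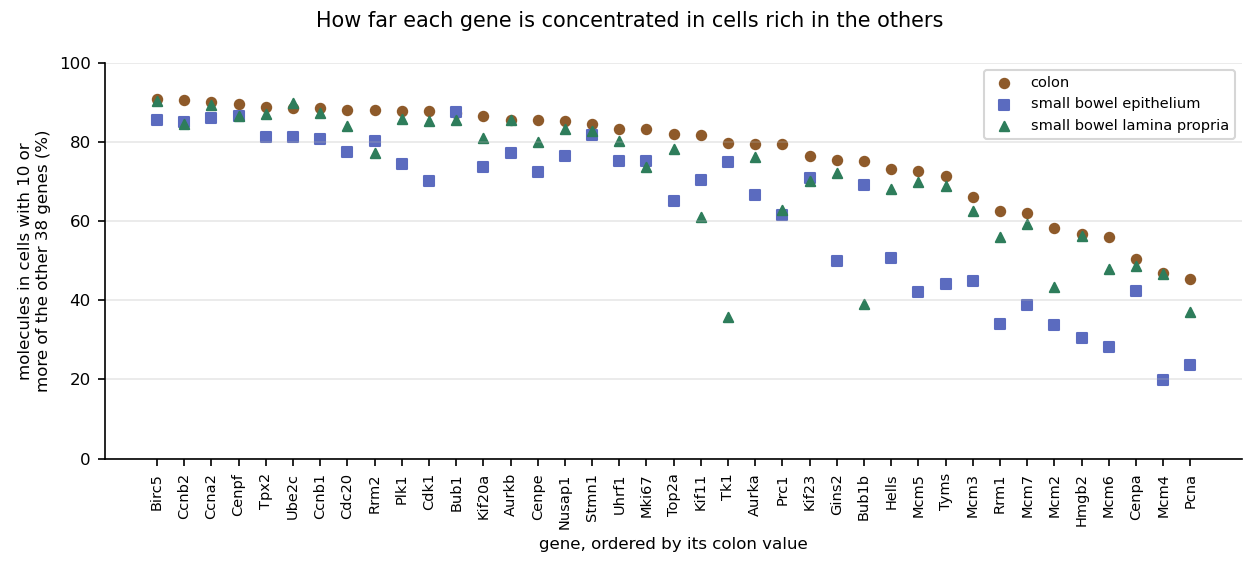
Percentage of the molecules of each gene found in cells with 10 or more of the other cell cycle genes (y axis), for each gene (x axis, ordered by colon) and tissue (symbols). Birc5 is at 91.0% and Pcna at 45.4% in colon, and the lamina propria points of Tk1 (35.7%) and Bub1b lie far below those of the other tissues.

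The balance of the S side and the M side also differed between gates. The S side summed to 468.9 CPM and the M side to 771.3 CPM in Epcam cells of the small bowel epithelium, a ratio of 0.608, and this ratio was 0.487 in colon and 0.507 in the lamina propria. In the T cell gates of the epithelium the S side was the higher, with ratios of 1.29 (Cd4 T), 1.75 (Cd8b1 T), 1.55 (Trdc T) and 1.77 (other T), and in the Trdc T gate of colon the ratio was 0.683. Over the 23 pairs of gate and tissue, which share libraries and depth, the log2 sums of both sides had a Pearson correlation of 0.83.

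**Figure D4:**
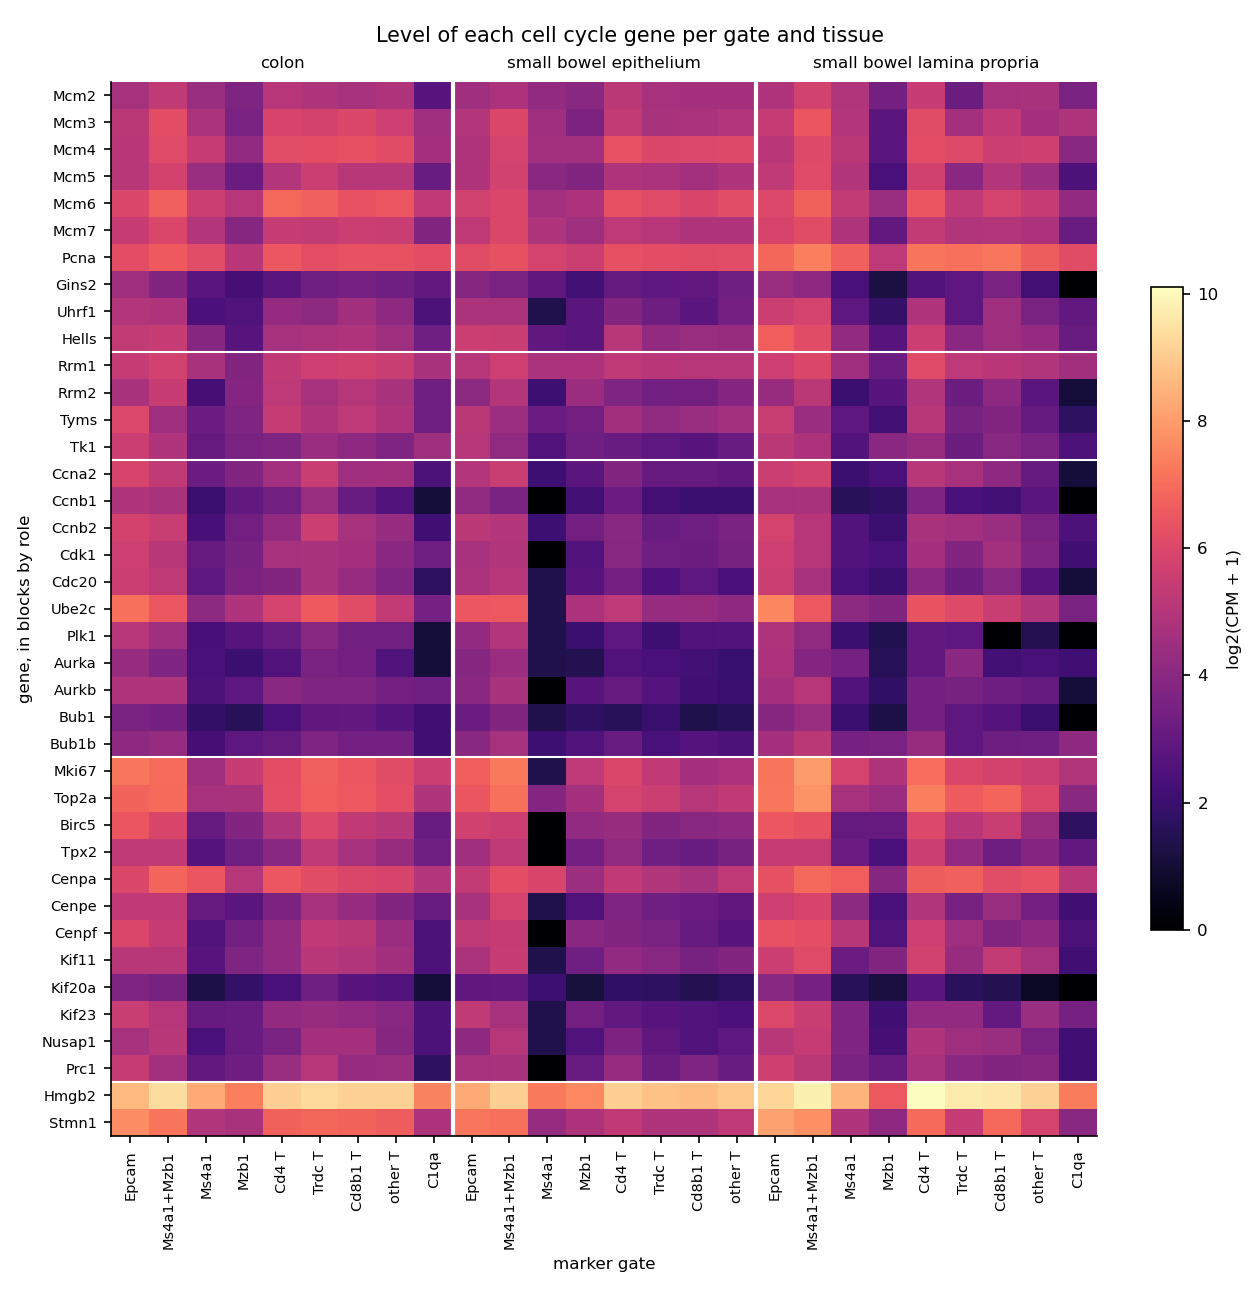
Level of each of the 39 genes (y axis, blocks by role) in each gate and tissue (x axis) over all libraries and genotypes, as log2(CPM + 1) in colour. The M side blocks are bright in the Epcam columns and in those of cells with both Ms4a1 and Mzb1, and dark where either B lineage marker was alone, while Pcna, the Mcm genes and Hmgb2 are seen in most columns.

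Epithelial cells and T cells of the small bowel epithelium were compared over the sums of the 3 libraries and their genotypes, with edgeR's quasi-likelihood test and Benjamini-Hochberg adjustment over all genes tested. All 39 genes were tested, and 31 were higher and 2 lower in the Epcam gate at an adjusted p under 0.05, in a comparison that called 76.5% of all genes tested, 37.3% higher and 39.2% lower. All 11 cyclin, kinase and ubiquitin genes and all 12 chromosome and spindle genes were higher, against 4 of 10 replication genes. Kif23, a kinesin of the midbody, had 29.6, 44.7 and 43.6 CPM in the Epcam cells of the 3 libraries and 4.24, 5.44 and 5.98 CPM in the Cd3e cells, a log2 change of 3.04 ± 0.16 (SE, adjusted p = 4.48e-10). Tk1 had 26.2, 29.5 and 38.6 CPM in Epcam cells and 5.44, 7.31 and 7.12 CPM in Cd3e cells (2.37 ± 0.16, adjusted p = 8.32e-09). Stmn1 had 131, 118 and 204 CPM in Epcam cells and 28.9, 30.4 and 37.2 CPM in Cd3e cells (2.34 ± 0.13, adjusted p = 1.35e-09). The libraries of these genes did not overlap between the gates. Cdc20, the activator of the anaphase-promoting complex, had 22.5, 19.4 and 37.5 CPM in Epcam cells and 5.82, 6.12 and 5.78 CPM in Cd3e cells (2.26 ± 0.20). Ube2c, its ubiquitin-conjugating enzyme, had 85.8, 65.5 and 115.6 CPM in Epcam cells and 17.7, 21.4 and 23.3 CPM in Cd3e cells (2.21 ± 0.15). The largest falls were those of Mcm4 and Hmgb2.

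Mcm4 had 27.5, 22.8 and 34.1 CPM in Epcam cells and 73.5, 69.5 and 58.4 CPM in Cd3e cells, a log2 change of -1.12 ± 0.15 (edgeR's quasi-likelihood test, adjusted p = 1.42e-05). Hmgb2 had 298, 259 and 381 CPM in Epcam cells and 469, 473 and 445 CPM in Cd3e cells (-0.44 ± 0.16, adjusted p = 0.0202). Both were lower in the Epcam cells of every library. Pcna had 64.4, 55.3 and 85.9 CPM in Epcam cells and 68.7, 73.0 and 75.7 CPM in Cd3e cells, and Mcm5 26.4, 27.3 and 34.5 CPM and 25.2, 28.0 and 25.9 CPM in the same order of gates, and neither passed the test. Mki67 had 86.0, 122.8 and 101.8 CPM in Epcam cells and 26.3, 33.8 and 44.9 CPM in Cd3e cells (1.72 ± 0.15). Top2a had 71.6, 108.2 and 87.2 CPM in Epcam cells and 36.0, 42.7 and 44.8 CPM in Cd3e cells (1.24 ± 0.13). Of the other named genes, Birc5 averaged 51.0 ± 15.1 CPM in Epcam cells and 15.1 ± 1.54 CPM in Cd3e cells, Cdk1 25.5 ± 7.08 and 9.89 ± 1.93 CPM, Ccnb1 16.2 ± 6.00 and 4.08 ± 0.347 CPM, Tyms 35.4 ± 7.69 and 19.7 ± 2.09 CPM, and Rrm2 15.4 ± 6.19 and 10.7 ± 2.09 CPM (SD, n = 3 libraries each), and each was higher in the Epcam gate. The mitosis list of 42 further genes had 30 higher and 3 lower, and the replication list of 31 had 13 higher and 8 lower.

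Colon B cells with Ms4a1 alone were lower than colon T cells in 33 of the 39 genes and higher in 1, Cenpa, where 53.3% of all genes tested were called, 26% higher and 27.2% lower. The median change of the 39 was -1.10 on the log2 scale, against 0.00 over all genes. Rrm2, the regulated subunit of ribonucleotide reductase, had 1.91, 5.16 and 3.05 CPM in Ms4a1 cells and 24.5, 21.3 and 38.2 CPM in Cd3e cells (-2.65 ± 0.29, edgeR's quasi-likelihood test, adjusted p = 1.31e-05). Ccnb2 had 3.18, 3.55 and 5.49 CPM in Ms4a1 cells and 23.9, 17.9 and 30.8 CPM in Cd3e cells (-2.36 ± 0.23, adjusted p = 5.45e-06). Birc5 had 10.2, 6.45 and 6.10 CPM in Ms4a1 cells and 36.6, 29.5 and 51.7 CPM in Cd3e cells (-2.18 ± 0.21, adjusted p = 4.26e-06). In none of the 3 did the libraries of both gates overlap. Cenpf (-2.15 ± 0.25) and Kif11 (-1.95 ± 0.25) followed. Cenpa, the centromeric histone, went the other way, with 91.4, 76.1 and 101.9 CPM in Ms4a1 cells and 67.9, 48.9 and 81.4 CPM in Cd3e cells (0.63 ± 0.10, adjusted p = 0.000309). Pcna, Mcm2, Gins2, Aurka and Bub1 did not pass the test, and Pcna had 75.6, 73.5 and 63.5 CPM in Ms4a1 cells and 86.6, 74.1 and 85.3 CPM in Cd3e cells. Where a gate took every cell with the marker, other lineage markers included, the direction turned, with 31 genes higher and 1 lower in the Ms4a1 gate.

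The cells with Ms4a1 and Mzb1 were the counterpart. All 39 genes were higher in them than in colon cells with Ms4a1 alone, where 17.4% of all genes tested were called and 10.1% were called higher, with a median change of 2.21 on the log2 scale, against -0.02 over all genes. Rrm2 had 44.3, 40.6 and 49.2 CPM with both markers and the values given above with Ms4a1 alone (3.55 ± 0.22, edgeR's quasi-likelihood test, adjusted p = 2.82e-05). Ccnb2 had 36.7, 50.1 and 39.2 CPM with both markers (3.48 ± 0.20, adjusted p = 1.50e-05). The mitotic cyclin gene Ccnb1 had 21.4, 28.4 and 24.1 CPM with both markers and 1.27, 2.58 and 5.49 CPM with Ms4a1 alone (3.09 ± 0.28, adjusted p = 0.000206). Every library with both markers lay above every library with Ms4a1 alone in these genes. Cenpf (3.07 ± 0.23) and Nusap1, which bundles spindle microtubules (3.04 ± 0.23), came next, and Mki67 had 91.5, 144.5 and 118.6 CPM with both markers and 26.7, 15.5 and 26.3 CPM with Ms4a1 alone (2.50 ± 0.21). The smallest changes were those of Cenpa (0.38 ± 0.09), Pcna (0.43 ± 0.08) and Mcm4 (0.73 ± 0.09). Outside the 39, 40 of 42 mitosis genes and 25 of 31 replication genes were higher. Median depth differed between these gates as given above.

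Plasma cells of the lamina propria were lower than its T cells in 22 genes and higher in 2, where 51.6% of all genes tested were called, 26.2% higher and 25.3% lower. The medians were -0.85 for the 39 genes and -0.02 for all genes on the log2 scale. Immunoglobulin and Jchain molecules were 53.5% of the Mzb1 gate and 2.27% of the Cd3e gate, and the TMM scaling moved all changes up by 1.20 on the log2 scale relative to library totals, which are the scale of the CPM values here. Mcm4 had 7.03, 5.66 and 5.12 CPM in Mzb1 cells and 56.4, 69.6 and 46.7 CPM in Cd3e cells (-2.07 ± 0.18, edgeR's quasi-likelihood test, adjusted p = 1.73e-05). Hmgb2 had 95.8, 90.1 and 88.6 CPM in Mzb1 cells and 827, 860 and 622 CPM in Cd3e cells (-1.86 ± 0.11, adjusted p = 1.73e-06). Mcm5 (-1.59 ± 0.21), Cenpa (-1.47 ± 0.15) and Mcm3 (-1.44 ± 0.16) were also lower, and all of these were lower on both scales. Tk1 had 16.5, 15.6 and 13.4 CPM in Mzb1 cells and 11.8, 16.6 and 11.0 CPM in Cd3e cells, a TMM-scaled change of 1.40 ± 0.20 (adjusted p = 0.000384) and a change of 0.20 on library totals (adjusted p = 0.390). Bub1b had 9.62, 11.8 and 11.5 CPM in Mzb1 cells and 11.8, 13.6 and 8.49 CPM in Cd3e cells, a TMM-scaled change of 1.15 ± 0.22 (adjusted p = 0.00233) that turned to -0.05 on library totals (adjusted p = 0.838). On library totals none of the 39 genes was higher and 35 were lower, among 79.5% of genes called.

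Between subsets of T cells no gene of the set passed the test. Between Cd4 T and Cd8b1 T cells of colon, 0 of the 31 genes that passed the low-count filter were called, and 1 had an unadjusted p under 0.05, where 8.58% of all genes were called. Between Trdc T and Cd8b1 T cells of the epithelium, 0 of 37 were called, and 2 had an unadjusted p under 0.05, where 18.6% of all genes were called (edgeR's quasi-likelihood test, with 0 also by DESeq2 in both). Without library 1 or 2 the second comparison called 3 and 8 genes higher in Trdc T cells, and without library 3 it called 9 lower.

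T cells of the small bowel epithelium were lower in cell cycle genes than T cells of the lamina propria beneath it. Of the 39 genes 28 were lower and 0 higher, where 47.4% of all genes tested were called and 25.3% were called lower. The M side accounted for 20 of the 28, with 9 of 11 cyclin, kinase and ubiquitin genes and 11 of 12 chromosome and spindle genes, against 4 of 10 replication genes. Kif23 had 4.24, 5.44 and 5.98 CPM in the epithelium and 16.8, 16.6 and 16.1 CPM in the lamina propria (-1.88 ± 0.24, edgeR's quasi-likelihood test, adjusted p = 0.000130). Cenpf had 7.41, 7.99 and 11.2 CPM in the epithelium and 28.6, 31.0 and 14.4 CPM in the lamina propria (-1.70 ± 0.28, adjusted p = 0.000712). Cenpa had 34.0, 30.9 and 30.9 CPM in the epithelium and 92.6, 97.6 and 70.4 CPM in the lamina propria (-1.67 ± 0.12, adjusted p = 3.31e-06). No library of one tissue reached the other in these genes. Nusap1 (-1.66 ± 0.25) and the checkpoint kinase gene Bub1 (-1.61 ± 0.47) were also lower, whereas Mcm4 had 73.5, 69.5 and 58.4 CPM in the epithelium and 56.4, 69.6 and 46.7 CPM in the lamina propria and did not pass the test. The Cd3e gate of the epithelium held more Cd8b1 T and Trdc T cells (2703 and 2414 of 8911) than that of the lamina propria (194 and 157 of 1248), where Cd3d was also detected in fewer cells, and the part of this make-up was not tested. Without library 2 of each tissue the count was 17.

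Between colon and lamina propria T cells 6 of the 39 genes differed, where 45.4% of all genes tested were called, 22.5% higher and 22.9% lower. Tyms had 31.1, 28.8 and 36.9 CPM in colon and 16.8, 21.2 and 8.49 CPM in the lamina propria (0.88 ± 0.26, edgeR's quasi-likelihood test, adjusted p = 0.0193). Mcm6 had 91.8, 96.3 and 99.7 CPM in colon and 58.9, 58.3 and 49.2 CPM in the lamina propria (0.62 ± 0.10, adjusted p = 0.00124). Pcna had 86.6, 74.1 and 85.3 CPM in colon and 141, 120 and 110 CPM in the lamina propria (-0.76 ± 0.12, adjusted p = 0.000954). The libraries of both tissues were apart in each of these 3 genes. Kif11 (-0.62 ± 0.18), Hmgb2 (-0.59 ± 0.14) and Cenpa (-0.56 ± 0.20) were lower in colon. Library 1 decided part of this count, since 2 genes were called without it, and on library totals the split was 6 higher and 2 lower.

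Plasma cells, taken as the Mzb1 gate, had 12 genes higher and 4 lower in colon than in the lamina propria, where 39.9% of all genes tested were called, 19.9% higher and 20% lower. The median was 0.51 for the 39 genes and 0.01 for all genes on the log2 scale. Tyms had 14.6, 12.2 and 10.1 CPM in colon and 4.11, 3.18 and 3.48 CPM in the lamina propria (1.34 ± 0.20, edgeR's quasi-likelihood test, adjusted p = 0.00211). Cdc20 had 22.5, 7.32 and 6.13 CPM in colon and 3.05, 2.69 and 3.54 CPM in the lamina propria (1.49 ± 0.47, adjusted p = 0.0392), and colon library 1 stood apart from the other two. Plk1, a mitotic kinase, had 7.96, 4.06 and 4.69 CPM in colon and 1.79, 1.13 and 2.09 CPM in the lamina propria (1.28 ± 0.38, adjusted p = 0.0316). Ccnb2 (1.21 ± 0.24) and Ccna2 (1.20 ± 0.31) rose as well. The 4 lower genes were Bub1b (-1.16 ± 0.19), Tk1 (-0.90 ± 0.14), Kif11 (-0.52 ± 0.16) and Pcna (-0.50 ± 0.10), and Bub1b had 7.51, 5.28 and 6.85 CPM in colon and 9.62, 11.8 and 11.5 CPM in the lamina propria. The count fell to 6, 9 and 5 without library 1, 2 and 3, and on library totals it was 27.

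The genotypes were compared within each gate and tissue, over sums by library and genotype with at least 30 cells and with the library as a block, since the KO, het and WT cells of a library were captured together. A gene had to pass a filter on low counts, which depends on the levels in the sums compared, so the counts of called genes describe the genes that passed and not all 39. With 1 KO mouse and 1 het mouse per run, animals and libraries cannot be told apart. Between KO and WT, genes of the set were called in 4 gates, all of T cells, higher in KO in 3 of them and lower in KO in Trdc T cells of colon.

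In Cd4 T cells of the small bowel epithelium, 10 of the 27 genes that passed were higher in KO and none was lower, where 1.17% of all genes tested were called and 0.481% were called higher. All but Hmgb2 belong to the M side, and 0 of the 8 replication and 2 nucleotide genes that passed were called. Ccna2, Nusap1, Cenpe, Cenpf and Prc1 had 1 to 3 molecules in WT and passed the filter through the other genotypes. They could only be called higher in KO. Kif11, Ube2c and Top2a were also low in WT, at 5, 12 and 13 molecules, and the same limit applies to them. The split by role and the absence of lower genes therefore partly follow from the filter. The gates held 117, 125 and 113 KO cells, 269, 614 and 40 het cells, and 37, 35 and 76 WT cells in libraries 1, 2 and 3. The summed level of the 39 genes was 2019, 2493 and 2573 CPM in KO, 1480, 1073 and 843 CPM in het, and 1164, 750 and 1161 CPM in WT, and that of the M side alone 744, 992 and 1065 CPM in KO, 247, 176 and 169 CPM in het, and 207, 101 and 245 CPM in WT. KO lay above het and WT in every library on both sums.

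Mki67 had 102, 154 and 156 CPM in KO, 32.8, 29.8 and 40.7 CPM in het, and 55.4, 0 and 29.9 CPM in WT, a KO over WT log2 change of 2.23 ± 0.39 (edgeR's quasi-likelihood test, adjusted p = 0.00507). Top2a had 108, 113 and 101 CPM in KO, 37.4, 41.7 and 23.3 CPM in het, and 10.1, 15.1 and 21.8 CPM in WT (2.58 ± 0.32, adjusted p = 0.000156). Ube2c had 87.9, 100.4 and 126 CPM in KO, 19.8, 7.06 and 17.4 CPM in het, and 5.04, 5.03 and 27.2 CPM in WT (2.80 ± 0.42, adjusted p = 0.00123). In all 3 genes the KO sums lay above all het and WT sums. The mitotic kinesin gene Kif11 had 39.3, 41.7 and 51.3 CPM in KO and 5.04, 0 and 10.9 CPM in WT (2.75 ± 0.57, adjusted p = 0.0193). Hmgb2 had 680, 705 and 801 CPM in KO, 604, 435 and 366 CPM in het, and 554, 227 and 443 CPM in WT (0.80 ± 0.19, adjusted p = 0.0457). The other 5 rest on at most 3 WT molecules each.

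Ccna2 had 29.8, 52.1 and 41.4 CPM in KO and 0, 0 and 2.72 CPM in WT, which is 84 molecules against 1, a ratio of 32.0 with a counting interval of 5.59 to 1280 (adjusted p = 0.00745 in edgeR's quasi-likelihood test). Prc1, which bundles the central spindle, had 28.3, 36.5 and 38.1 CPM in KO and 0, 5.03 and 5.44 CPM in WT (ratio 8.76, interval 2.88 to 43.5, adjusted p = 0.0181). Cenpf had 23.6, 58.7 and 34.8 CPM in KO and 5.04, 0 and 5.44 CPM in WT (ratio 10.3, interval 3.40 to 50.9, adjusted p = 0.0346). KO and WT sums were apart in each. Nusap1 had 28.3, 26.1 and 33.1 CPM in KO and 0, 5.03 and 2.72 CPM in WT, and the kinetochore motor gene Cenpe 33.0, 20.9 and 34.8 CPM in KO and 5.04, 0 and 2.72 CPM in WT, each with a ratio of 11.0 (interval 2.92 to 93.4, adjusted p = 0.0407 and 0.0435). Replication genes showed less, with 73.8, 108.2 and 89.4 CPM of Pcna in KO and 85.7, 50.3 and 65.3 CPM in WT, and with 76.9, 97.8 and 87.7 CPM of Mcm6 in KO and 60.5, 85.6 and 95.2 CPM in WT, and neither passed the test.

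The cells richest in these genes were few, and they are picked here by the same genes whose level was compared. In KO, 19 of 355 cells had 10 or more of the 39 genes and held 68.6% of their molecules, against 19 of 923 het cells with 20.1% and 3 of 148 WT cells with 32.7%. In KO these cells were 4, 5 and 10 by library, against 13, 6 and 0 in het and 1, 0 and 2 in WT, and the single richest KO cell held 12.5% of the KO molecules. Those 19 KO cells had a median of 13756 molecules and the other KO cells 4750. Of the Ube2c molecules in KO, 94.7% came from cells with 10 or more of the genes. Among other cell type markers, the Cd8a level was 322 to 591 CPM in KO and 247 to 345 CPM in WT, and the 3 gamma-delta genes summed to 342 to 529 CPM in KO and 181 to 408 CPM in WT. Cd8a was detected in 62.6% of this gate over all genotypes. The 2 mast cell genes summed to 2120 CPM in KO library 1 and to 7.82 and 14.9 CPM in the other KO libraries, against 5.44 to 20.1 CPM in WT. The part of these cells in the result was not tested. DESeq2 called 1 gene, 0 genes were called when cells were kept only with a hashtag share of 80% or more (23 genes passed there) or without the WT sums of libraries 1 and 2, and 3, 2 and 10 were called without library 1, 2 and 3.

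**Figure D5:**
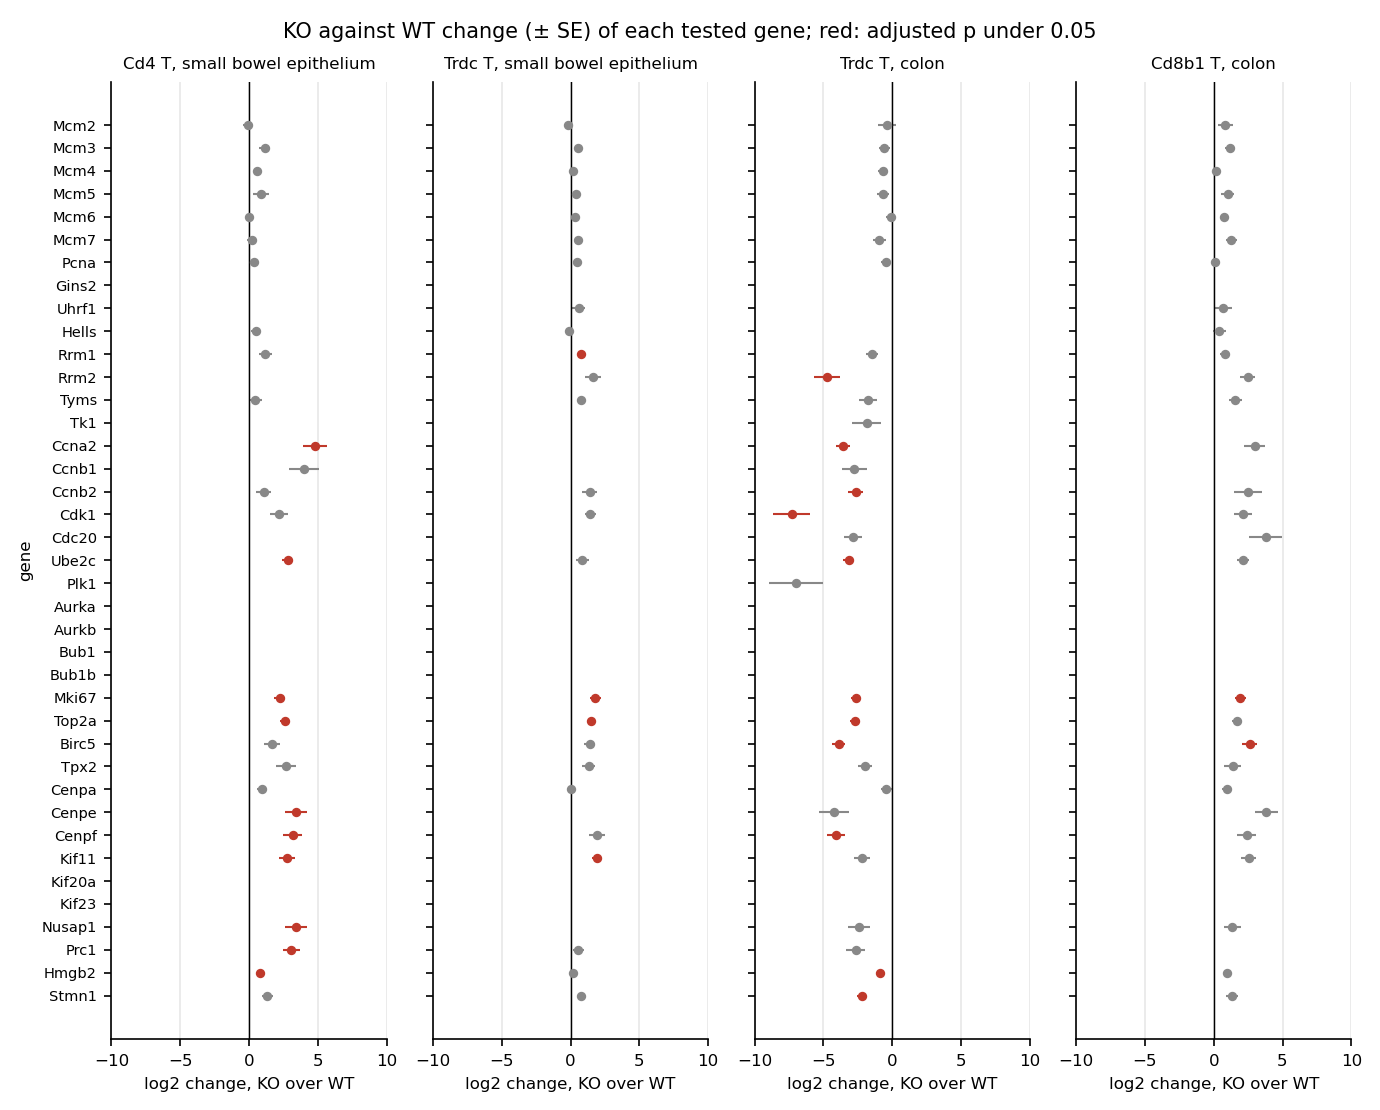
KO over WT log2 change with its standard error (x axis) for each gene that passed the low-count filter (y axis) in 4 T cell gates (panels), with genes of adjusted p under 0.05 in red. Called genes lie right of 0 in both epithelium gates and in colon Cd8b1 T cells, and left of 0 in colon Trdc T cells, where the fitted values of Cdk1 and Plk1 rest on KO sums at 0 and are no measure of size.

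In Trdc T cells of the small bowel epithelium 4 of 25 genes that passed were higher in KO, where 0.763% of all genes tested were called and 0.387% were called higher. Mki67 had 28.3, 16.6 and 165 CPM in KO, 12.9, 27.8 and 26.1 CPM in het, and 7.29, 17.0 and 32.9 CPM in WT (1.80 ± 0.38, edgeR's quasi-likelihood test, adjusted p = 0.0290). Top2a had 35.7, 19.9 and 132 CPM in KO and 19.0, 19.5 and 29.7 CPM in WT (1.47 ± 0.29, adjusted p = 0.0205). Kif11 had 10.5, 14.9 and 49.8 CPM in KO and 5.84, 0.849 and 13.0 CPM in WT (1.92 ± 0.35, adjusted p = 0.0113). In these 3 genes KO library 3 stood far above the rest and the groups overlapped. Rrm1 had 33.6, 41.4 and 48.5 CPM in KO and 20.4, 24.6 and 28.6 CPM in WT, with no overlap (0.74 ± 0.17, adjusted p = 0.0479). The summed level of the 39 genes was 1050, 995.4 and 1979 CPM in KO, 956, 1137 and 1289 CPM in het, and 853.3, 883.7 and 1059 CPM in WT. The 2 mast cell genes summed to 285 CPM in KO library 3 and to 286 CPM in het library 2, where Mki67 was at 27.8 CPM, against 14.1 to 21.0 CPM in the other KO and het libraries and 14.4 to 18.4 CPM in WT. Without library 3 no gene was called, DESeq2 called none, and without the WT sums of libraries 1 and 2 the count was 1.

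In Trdc T cells of colon the direction was the opposite, with 11 of 30 genes that passed lower in KO and none higher, where 0.664% of all genes tested were called and 0.38% were called lower. Several of the 11 were low in KO and passed the filter through the other genotypes, so the absence of higher genes partly follows from the filter. The summed level was 1173 and 1466 CPM in the KO sums of libraries 1 and 3 (43 and 54 cells), against 3246, 2481 and 4075 CPM in WT (49, 122 and 51 cells). KO library 2 had 29 cells, below the minimum, and 812.3 CPM, and is given in the lists that follow although it was not fitted. Birc5 had 4.69, 5.11 and 13.4 CPM in KO and 126, 77.9 and 164 CPM in WT, a log2 change of -3.87 ± 0.47 (edgeR's quasi-likelihood test, adjusted p = 7.92e-05). Ube2c had 23.5, 25.5 and 20.1 CPM in KO and 169, 130 and 224 CPM in WT (-3.17 ± 0.39, adjusted p = 7.92e-05). Top2a had 28.1, 15.3 and 30.2 CPM in KO and 181, 133 and 203 CPM in WT (-2.69 ± 0.36, adjusted p = 0.000202). All KO values lay below all WT values. Mki67 had 23.5, 25.5 and 33.5 CPM in KO and 169, 148 and 203 CPM in WT (-2.66 ± 0.36, adjusted p = 0.000223). Stmn1 had 42.2, 40.9 and 57.0 CPM in KO and 228, 119 and 250 CPM in WT (-2.22 ± 0.31, adjusted p = 0.000248). Ccna2 had 4.69, 5.11 and 10.1 CPM in KO and 58.9, 51.9 and 125 CPM in WT (-3.56 ± 0.53, adjusted p = 0.000569). These 3 genes were apart in the same way.

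Of the remaining called genes in that gate, 3 rest on fewer than 3 KO molecules in the fitted sums. These 3 passed the filter through the other genotypes and could only be called lower in KO. Ccna2, Birc5, Ccnb2 and Ube2c were also low in the fitted KO sums, at 4, 5, 7 and 11 molecules, and the same limit applies to them. Cenpf had 2 molecules in KO and 92 in WT, a level 17.2-fold lower in KO with a counting interval of 4.62 to 144 (edgeR's quasi-likelihood test, adjusted p = 0.00122). Rrm2 had 1 in KO and 55 in WT, 20.5-fold lower with an interval of 3.53 to 825 (adjusted p = 0.0151). Cdk1, the kinase that starts mitosis, had 0 in KO and 62 in WT, which is at least 7.71-fold lower when 3 molecules over the group are taken as the floor (adjusted p = 0.00714). The KO library that was not fitted had 5.11 CPM of Cdk1, 5.11 CPM of Rrm2 and 0 CPM of Cenpf. Ccnb2 had 0, 5.11 and 23.5 CPM in KO and 82.4, 67.0 and 91.0 CPM in WT (-2.66 ± 0.55, adjusted p = 0.0192), and Hmgb2, the eleventh gene, had 394, 250 and 631 CPM in KO and 958, 697 and 970 CPM in WT (-0.91 ± 0.19, adjusted p = 0.0226). Mcm6 had 122, 40.9 and 100.6 CPM in KO and 106, 109 and 133 CPM in WT and did not pass the test. Of the further mitosis genes 4 of 26 tested were lower in KO (Cdca8, Cks1b, Racgap1 and Smc2), and 0 of 16 replication genes.

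In this gate cells with 10 or more of the genes were 21 of 222 in WT and held 74.8% of the molecules, against 7 of 126 in KO with 33.8% and 6 of 102 in het. By library they were 3, 1 and 3 cells in KO and 3, 7 and 11 cells in WT. The 2 fibroblast genes summed to 0, 649 and 245 CPM in KO and 0, 118 and 0 CPM in WT, the 6 NK and ILC genes to 155 to 335 CPM in KO and 98.4 to 220 CPM in WT, and the 5 B cell genes to 191 to 361 CPM in KO and up to 738 CPM in WT, where every sum was higher, and the part of such cells was not tested. The fit of this gate leaves 1 degree of freedom among the sums, so its spread is largely borrowed from all genes. DESeq2 and the gate by marker alone called 0, and 8 of 20 genes were called with a minimum of 10 cells, which brings in KO library 2.

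Colon Cd8b1 T cells had 2 of 28 genes higher in KO, where 0.359% of all genes tested were called and 0.291% were called higher. Mki67 had 110.5 and 219 CPM in the fitted KO sums of libraries 2 and 3, and 33.5 CPM in KO library 1 with 25 cells, against 10.1, 49.2 and 21.6 CPM in WT (1.94 ± 0.39, edgeR's quasi-likelihood test, adjusted p = 0.0435). Birc5 had 46.0 and 85.9 CPM in the fitted KO sums, 0 CPM in KO library 1, and 5.04, 10.9 and 6.16 CPM in WT (2.62 ± 0.53, adjusted p = 0.0435). The fitted KO sums lay above WT in both genes, and KO library 1 did not in Birc5 and lay within the WT range in Mki67. Het cells were also higher than WT, with log2 changes of 1.69 ± 0.42 for Mki67 and 2.92 ± 0.54 for Birc5. Neither het change was called (adjusted p = 0.271 and 0.0584 in the same test), but both were near the KO changes in size, so these rises were not particular to KO. Cells with 10 or more of the genes were 10 of 135 in KO with 70.9% of the molecules, 6 of 101 in het with 68.3% and 6 of 198 in WT with 30.8%. The 5 macrophage genes summed to 201 to 1230 CPM in KO and 12.8 to 20.2 CPM in WT, and the 5 B cell genes to 1350 to 4010 CPM in KO and 166 to 262 CPM in WT, and the part of such cells was not tested. DESeq2 called 0, and without library 1 no gene was called.

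In the other gates that could be fitted, no gene of the set was called between KO and WT by edgeR's quasi-likelihood test. The shares of all genes called, here and below, use the adjusted p. They are no background for the counts at an unadjusted p. No share of all genes at that threshold is given here, so those counts carry no result about the set. In Epcam cells all 39 genes passed in colon, with 10 at an unadjusted p under 0.05, where 0.0302% of all genes were called. In the epithelium 37 genes passed in Epcam cells, with 0 at an unadjusted p under 0.05, where 15% of all genes were called. In the lamina propria all 39 passed in Epcam cells, with 1 at an unadjusted p under 0.05, where 0% of all genes were called. Mki67 had 80.5, 108.3 and 131.4 CPM in KO and 91.6, 110.0 and 88.3 CPM in WT in Epcam cells of the epithelium, so the groups overlapped. In plasma cells of the lamina propria 35 genes passed, 3 had an unadjusted p under 0.05, and Mki67 had 43.4, 39.01 and 26.6 CPM in KO and 15.7, 27.5 and 42.2 CPM in WT, where 0.0474% of all genes were called. Colon Cd4 T cells had 0 of 26 genes called, 3 at an unadjusted p under 0.05, where 0.0421% of all genes were called, and epithelium Cd8b1 T cells 0 of 32, with 8 at an unadjusted p under 0.05, where 0.354% of all genes were called. The other T cells had 0 of 32 genes called in colon (2 at an unadjusted p under 0.05, 0.0706% of all genes called), 0 of 29 in the epithelium (0 unadjusted, 0.374%) and 0 of 5 in the lamina propria (0 unadjusted, 1.69%). B cells of the Ms4a1 gate had 0 of 15 called in colon (0 unadjusted, 0.106%) and 0 of 3 in the lamina propria (0 unadjusted, 0.188%). The colon Mzb1 gate had 0 of 22 (9 unadjusted, 0%), and macrophages of the lamina propria C1qa gate 0 of 2 (0 unadjusted, 2.15%). DESeq2 called 1 gene in the epithelium, in Cd4 T cells, and 0 in colon and the lamina propria, over the single-marker gates of a tissue. T cell subsets of the lamina propria had too few WT cells to be compared.

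Between het and WT cells no gene of the set was called by the same test in any single-marker gate that could be fitted. Cd4 T and Trdc T cells of colon, and the C1qa gate of the lamina propria, were not compared. They had too few het sums of at least 30 cells. The most genes at an unadjusted p under 0.05 were 15 of 28 in colon Cd8b1 T cells and 8 of 25 in epithelium Trdc T cells. Of all genes, 0% and 0.612% were called there. These and the following shares use the adjusted p and are no background for the unadjusted counts. In Cd4 T cells of the epithelium 4 of 27 had an unadjusted p under 0.05, where 3.34% of all genes were called. In Epcam cells 4 of 39 had an unadjusted p under 0.05 in colon (0% of all genes called), 0 of 39 in the lamina propria (0%) and 1 of 37 in the epithelium (13.6%). The other T cells had 3 of 32 in colon (0.0706%), 1 of 29 in the epithelium (0.353%) and 0 of 5 in the lamina propria (0.143%), and the Cd8b1 T cells of the epithelium 0 of 32 (0.396%). In the Ms4a1 gate it was 0 of 15 in colon (0.0661%) and 0 of 3 in the lamina propria (0.113%), and in the Mzb1 gate 3 of 22 in colon (0%) and 0 of 35 in the lamina propria (0.0284%). DESeq2 called 0 in each tissue over the single-marker gates. These comparisons share their WT sums with those of KO.

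The cells with Ms4a1 and Mzb1, where the set was highest among B lineage cells, had summed levels with means of 2046 CPM in KO, 1630 CPM in het and 3037 CPM in WT colon (3 libraries each). Het was below WT in all 3 libraries and KO in 2 of 3. No gene was called by edgeR's quasi-likelihood test. The shares of all genes called that follow use the adjusted p, unlike the counts beside them. In colon 12 of 39 genes had an unadjusted p under 0.05 in KO (0.0323% of all genes called, and 1 of the 39 called by DESeq2) and 27 of 39 in het (0.0108%, and 3 by DESeq2). In the lamina propria it was 1 of 36 in KO (0.0335%) and 0 of 36 in het (0.0168%).

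Whether the KO over WT change differed between colon and the epithelium was tested as an interaction. In Trdc T cells 17 of the 39 genes had a lower KO over WT change in colon than in the epithelium and none a higher one, where 0.503% of all genes tested were called and 0.445% were called lower. In Cd4 T cells only Top2a differed, by -2.73 on the log2 scale (edgeR's quasi-likelihood test, adjusted p = 0.0330), among 31 genes that passed where 0.111% of all genes were called and 0.0614% were called lower. In Cd8b1 T cells 0 of 36 differed, with 9 at an unadjusted p under 0.05. Of all genes, 0.124% were called at the adjusted threshold. The values of the 17 genes are given with the results for a closer look.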

How the data were processed

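Gene expression and hashtag antibody molecules were measured in 18 samples, 9 of each kind. The deposited gene and hashtag values are molecule counts per cell that the authors made with Cell Ranger and Seurat on the build mm10, per the submitters' processing notes; versions and settings are not given in the sources used here. Cells with 200 to 8000 genes, 300 to 50000 molecules and less than 20% mitochondrial molecules were kept, the limits the study states, and this removed 401 colon, 280 small bowel epithelium and 253 lamina propria cells. The barcode ending, the other kind of column used from the deposited tables, gave the library (3 per tissue), and the leading hashtag of each ending gave the genotype. The labels do not tie an ending to a run number, so libraries are paired within a tissue only, where the labels say that KO, het and WT cells were combined by organ before capture.

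Molecules were summed per tissue, library, genotype and gate (at least 30 cells). Levels are CPM on all molecules of the sum. Genotypes, gates and tissues were compared with edgeR 4.0.16 (filterByExpr, TMM, quasi-likelihood test) over all genes, with Benjamini-Hochberg adjustment and a threshold of 0.05. Gates were compared with the library as a block, genotypes likewise, and tissues without one. The error given with a change is the log2 change divided by the root of the F value. Cells were thinned to 1000 molecules for shares of cells with 3 or more genes, and shallower cells were left out there (966 colon, 981 epithelium and 2684 lamina propria cells). Molecules from PCR copies were removed by the molecular identifiers as far as the deposited counts do so.

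The alternatives were RLE factors, DESeq2 1.42.0, no filter, a gate by marker alone, 2 or more marker molecules, sums of at least 10 cells, each library left out, a hashtag share of at least 80% and the fit without the block. Added after seeing the data were the gate of cells with Ms4a1 and Mzb1, cells with 10 or more genes, sums without the WT cells of doubtful hashtags, the interaction of genotype and tissue, and library totals without TMM factors. R 4.3.3 and Python 3.11.15 were used. The tests were checked on simulated counts with known changes. These stood for KO against WT in epithelium Cd8b1 T cells, epithelium against lamina propria Cd3e cells, and Ms4a1 against Cd3e cells of colon. Genes varied independently there and with the same spread, so the check does not cover the small gates in which genes were called between genotypes.

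Values per library are given for Mki67, Top2a, Cdk1, Ccnb1, Birc5, Mcm5, Pcna, Rrm2, Tyms, Hmgb2, Stmn1 and Ube2c in the comparison of Epcam and Cd3e cells (as means where so written), for every gene called between genotypes (the 10 with the largest change where more were called), and for up to 5 called genes in each direction between gates or tissues. Others that are named were chosen after their values were seen. The genes, the further pathway lists and the tests were chosen with earlier results of these data known.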

Additional observations from a re-analysis of the deposited data

Results flagged for a closer look

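The results named here share 1 pattern: the KO over WT change of a cell cycle gene differed between colon and the small bowel epithelium in a test of the difference itself, with genotype, tissue and library in 1 edgeR model. In Trdc T cells the difference, colon minus epithelium on the log2 scale, was negative in all 17 genes concerned. The cyclins, kinases and ubiquitin machinery had differences of -10.28 for Cdk1, -5.46 for Ccna2, -4.02 for Ube2c, -4.00 for Ccnb2 and -3.68 for Cdc20. The chromosome and spindle genes had -6.30 for Cenpe, -6.05 for Cenpf, -5.24 for Birc5, -4.44 for Mki67, -4.14 for Top2a, -4.11 for Kif11, -4.03 for Nusap1 and -3.28 for Tpx2. The nucleotide supply genes had -6.48 for Rrm2 and -2.22 for Rrm1, and Stmn1 and Hmgb2 had -2.99 and -1.06. No replication gene was among them. The adjusted p values of edgeR's quasi-likelihood test ran from 0.000242 for Top2a to 0.0494 for Tpx2. The sizes of Cdk1, Rrm2, Cenpe, Cenpf, Ccna2, Birc5 and Ccnb2 rest on KO sums of colon with few or no molecules. They are fitted values, not measures of size. For Ccna2, Birc5 and Ccnb2 the KO sums of colon held 4, 5 and 7 molecules. The interaction was added after seeing the data, and no alternative setting was run for it. In the epithelium, KO library 3 held 245 of the 319 Mki67 molecules of KO. Without library 3 no gene was called between KO and WT in that gate, and DESeq2 called none in the Trdc T gate of either tissue. Only 2 KO sums entered from colon, with 43 and 54 cells, and the cells with 10 or more of the 39 genes were 7 of 126 KO cells and 21 of 222 WT cells there, against 19 of 816 KO cells and 11 of 690 WT cells in the epithelium.

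In Cd4 T cells Top2a alone differed, with a difference, colon minus epithelium, of -2.73 (adjusted p = 0.0330). It had 30.5, 56.8 and 100.3 CPM in KO colon and 89.5, 31.6 and 117.4 CPM in WT colon, which overlap, and the epithelium values given in the report, which do not.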

How the results depend on the processing

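Counts of genes past the threshold were recomputed in 189 combinations of result and setting. In 138 they kept their direction and stayed within 1.5 times, in 44 they moved further and in 7 the majority direction turned. Between KO and WT in colon (13 called over all gates), the count was 0 with DESeq2, 0 by marker alone, 0 with the hashtag share, 22 with 2 or more marker molecules, 22 on library totals and 40 without a filter, where 21 were higher and 19 lower, and leaving out a library gave 0 to 11. In the epithelium (14 called) it was 1 with DESeq2, 32 without a filter, 12 by marker alone (3 higher, 9 lower), 3 with the hashtag share and 2 without the WT sums of libraries 1 and 2, and 6 to 11 without a library. In the lamina propria (0 called) it was 4 without a filter, 1 without the WT sum of library 3 and 0 to 1 without a library. For het, colon (0) had 2 with RLE factors, 10 without a filter, 2 with 2 or more marker molecules, 2 with sums of at least 10 cells, 1 with the hashtag share and 6 on library totals, the epithelium (0) had 6 without a filter, 5 by marker alone and 0 to 1 without a library, and the lamina propria had 0 throughout. In the cells with Ms4a1 and Mzb1 of colon, KO (0) had 1 with DESeq2 and 12 without a filter, and het (0) had 3 and 30.

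Between gates, Ms4a1 against Cd3e (34) gave 22 with DESeq2, 32 by marker alone with the direction turned, and 28 to 30 without a library. There the marker-alone changes were 0.39 for Rrm2, 0.89 for Ccnb2, 0.52 for Birc5, 0.63 for Cenpf and 0.29 for Kif11. Mzb1 against Cd3e (24) gave 10 by marker alone and 19 to 25 without a library, and Bub1b was at -0.05 on library totals. Epcam against Cd3e (33) gave 31 to 33, cells with both B cell markers against Ms4a1 alone (39) 36 to 38, Cd4 T against Cd8b1 T (0) 0 to 1, and Trdc T against Cd8b1 T (0) 3 to 9 without a library and 3 without a filter. Between tissues, T cells of the epithelium against the lamina propria (28) gave 17 to 27 without a library. T cells of colon against the lamina propria (6) gave 15 by marker alone (12 higher, 3 lower), 8 on library totals (6 higher, 2 lower) and 2 to 9 without a library, where library 2 left out turned the split to 4 higher and 1 lower (5). Plasma cells of colon against the lamina propria (16) gave 31 by marker alone, 27 on library totals and 5 to 9 without a library, with 2 higher and 3 lower without library 3.

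Libraries pair the samples within a tissue, since their cells were captured together. Without the replicate block the KO count was 12 in colon, 7 in the epithelium and 0 in the lamina propria, het counts stayed at 0, and the gate counts were 32, 25, 33, 0 and 0 in the order above, and 38 for both B cell markers. No paired analysis was possible because the barcode endings carry no run number for the comparisons of tissues. The cause of these shifts was not tested. Of 739 recomputed changes of named genes, 591 kept direction and call, 142 lost the call and 6 turned, and of 259 between genotypes 104 lost the call and 0 turned. Depth limits the genotype comparisons of small gates, where many of the 39 genes did not pass the low-count filter.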

Other observations

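Genes that open or brake the cell cycle, outside the 39, were set beside them. In Epcam cells of the small bowel epithelium, in the comparison that called 76.5% of all genes tested (37.3% higher, 39.2% lower), 11 of 18 entry genes were higher than in Cd3e cells and 4 lower, with log2 changes of 5.25 for Ccnd1, a D-type cyclin, 3.33 for E2f2 and -2.32 for Ccnd3. The share called in both lists, 15 of 18 and 14 of 16, is near that background. Among the 16 brake genes 4 were higher, including 4.44 for Cdkn1a and 3.96 for Cdkn1c, which encode inhibitors of cyclin-dependent kinases, and 10 were lower, including -3.91 for Cdkn2a and -2.77 for Btg1. In colon cells with Ms4a1 and Mzb1, against Ms4a1 alone, where 17.4% of all genes were called, 8 of 16 entry genes were higher and 1 lower, and 3 of 14 brake genes were higher and 6 lower. There Cdkn2c was higher by 1.70, and Cdkn1a (-0.89), Klf2 (-0.59) and Myc (-0.62) were lower. Cdt1, which loads the helicase in G1, was the only one of 31 replication genes that fell there (-0.32), while 25 rose. All were called by edgeR's quasi-likelihood test with Benjamini-Hochberg adjustment.

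In the T cells of the lamina propria, all Cd3e cells together, the summed level averaged 2281 CPM in KO, 1840 CPM in het and 1434 CPM in WT, and KO was above WT in all 3 libraries. Over all cells of WT library 3 of this tissue, the WT hashtag led in 55.69%, and the median was 1422.5 molecules per cell. In colon the means were in the opposite order, at 1689 CPM in KO, 1913 CPM in het and 2010 CPM in WT. The colon sums overlapped, from 1175 to 2254 CPM in KO, 1861 to 1969 CPM in het and 1516 to 2292 CPM in WT. These sums were not tested.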
